A study of Macaca mulatta with 2 samples.

Results

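The genes described here belong to the borders of the brain: 39 genes of the meninges, the membranes that wrap the cortex, and 7 genes of the choroid plexus, the epithelium in the ventricles that secretes cerebrospinal fluid. They were chosen by name, and partly because of how they differed between the same libraries, so their differences are a description and no test. Of the 46 names, 45 are listed in the table of 33618 genes. The remaining name, COL5A1, is not listed by symbol, and its values are given apart from the counts below. The tissue was prefrontal cortex of infant rhesus macaques at postnatal day 28, from 1 control animal and 1 animal exposed to sevoflurane, an inhaled anesthetic. By the labels, the exposures took place at about postnatal days 7, 14 and 28, each for 4 h with 2.5 to 3% sevoflurane. The study's methods give later days for the repeat exposures, and place the tissue collection directly after the final one. What the control animal breathed, and whether it was handled in the same way, is not given in the sources used here. By the study's methods, sevoflurane was given in oxygen, at a higher concentration for induction, and with endotracheal intubation for maintenance. No strain, allele or other agent is named for either animal.

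The leptomeninges hold fibroblasts that lay down collagen, small proteoglycans and glycoproteins, release retinoic acid and insulin-like growth factor, and make prostaglandin D2 synthase, an abundant protein of cerebrospinal fluid. Beneath the dura, a barrier layer carries transporters that move organic anions, organic cations, amino acids and sulfate between the cerebrospinal fluid and the blood. Choroid plexus epithelium is known for a very high level of transthyretin, the carrier of thyroid hormone and retinol, and shares some of the same transporters. Neither tissue is part of the cortical grey matter itself, but pia and the sheaths of penetrating vessels are cut out with it.

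Each group held 1 library, so there is no replicate error, and a difference is one between 2 animals rather than between treatments. Their depths were 16960880 reads (control) and 9839105 reads (sevoflurane). Values are reads relative to library size (CPM), scaled by the TMM method, which sets a common library size. The detection floor of 3 reads equals 0.179 CPM (control) and 0.302 CPM (sevoflurane). A gene was tested when it had at least 1 CPM in either library, and it was called higher or lower when its log2 ratio of sevoflurane over control was at least 1 in size (2-fold) and its exact 95% counting interval excluded equal expression. Intervals cover counting error only. Neuronal RNA was abundant in both libraries, with SNAP25 at 1257 CPM (control) and 1275 CPM (sevoflurane), though this gene does not mark cortex in particular. The 7 Y-linked genes held 3 control and 4308 sevoflurane reads, so that animal, exposure and, by these reads, sex cannot be told apart.

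Most genes of the meninges stood at a higher level in the sevoflurane library, while the genes of the choroid plexus did not share one direction. Of the 45 listed genes, 43 were tested, and 20 of these were called higher and 2 lower. Over all 18050 tested genes, 7.56% were called higher and 5.47% lower. The calls were uneven between the classes assigned to the tissues, although choroid plexus shares some of the transporters counted here as meningeal. Among the 38 meningeal genes, all tested, 19 were higher, 1 was lower and 18 were neither, with a median log2 ratio of 0.91, whereas the median of all tested genes was -0.0048. Among the 5 tested choroid plexus genes, 1 was higher, 1 was lower and 3 were neither, with a median of -0.29. Nearest to the threshold were COL5A2 (-1.05), SLC6A13 (1.06) and CYP1B1 (1.07) inside it, and PRLR (-0.87), COL15A1 (0.76) and COL6A3 (0.76) outside it. Because the rule chose these genes partly on this contrast, nothing is read from their excess over the background. In bulk tissue, fewer cells of a type and less RNA per cell cannot be told apart.

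**Figure D1:**
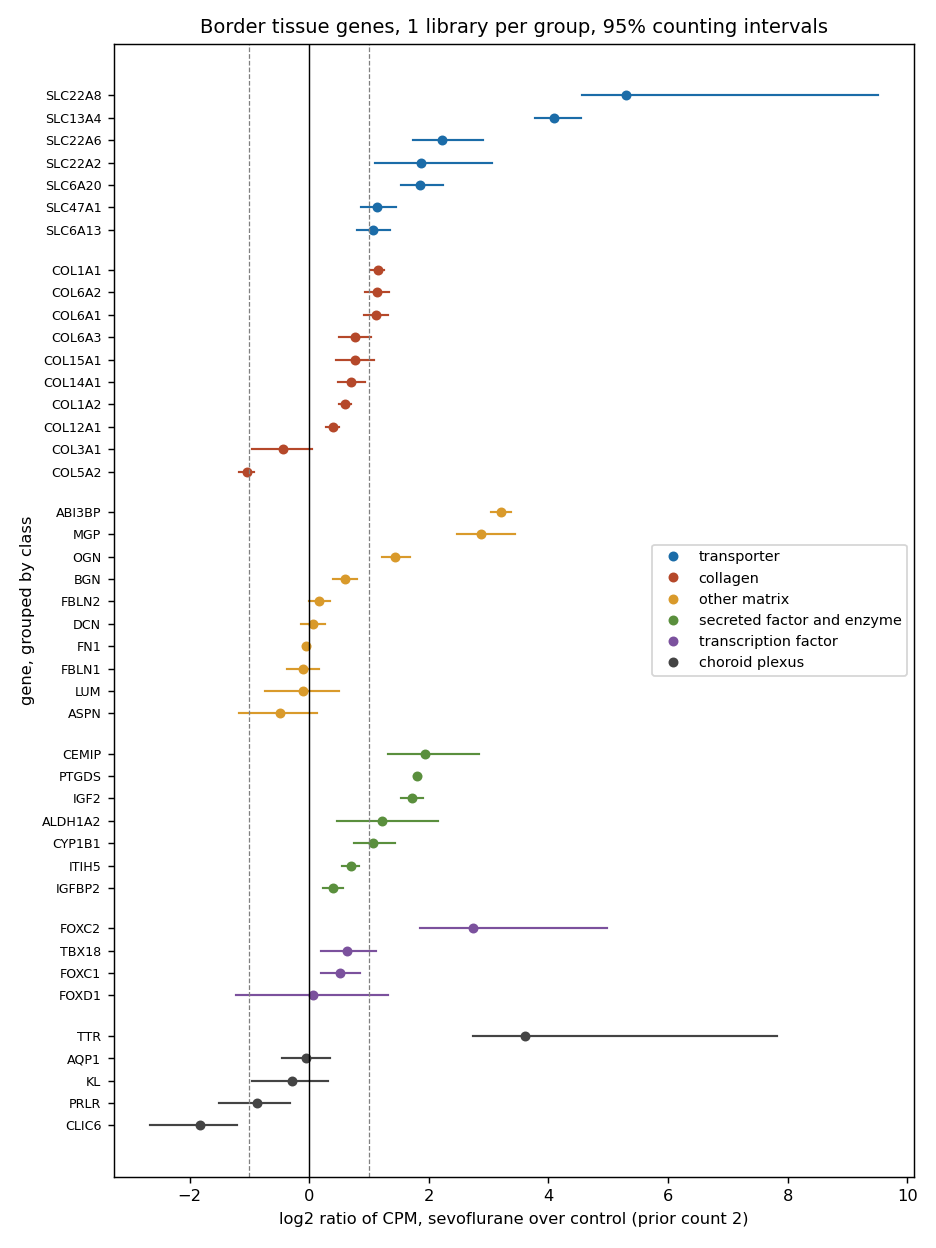
Log2 ratio of CPM, sevoflurane over control, for the 43 tested genes by class, with exact 95% counting intervals as lines and the 2-fold threshold as dashed lines (1 library per group). All 7 transporters lie to the right of 1, whereas the other matrix genes range from -0.48 to 3.20 and the choroid plexus genes from -1.82 to 3.61.

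The transporters were the only class in which every gene was called higher: 7 of 7, with a median log2 ratio of 1.86. Their reads summed to 583 (control) and 1576 (sevoflurane), or 34.7 and 159 CPM, a 4.57-fold difference (95% interval 4.16 to 5.04). SLC13A4, a sodium-dependent sulfate transporter, was counted 62 times (3.69 CPM) in the control and 650 times (65.5 CPM) after sevoflurane, a log2 ratio of 4.09 (95% interval 3.77 to 4.55). SLC13A4 thus made up 10.6% of the transporter reads in the control (exact 95% interval 8.25 to 13.4) and 41.2% in the sevoflurane library (38.8 to 43.7).

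The organic ion transporters differed among themselves in the size of the difference. SLC22A8, an organic anion transporter of the cerebrospinal fluid barriers, had 2 control and 103 sevoflurane reads. The ratio of its CPM was 87.1, with a wide counting interval of 23.5 to 729 because of the 2 control reads. SLC22A6, the related organic anion transporter best known from the kidney, had 35 and 102 reads (log2 ratio 2.22, interval 1.74 to 2.90). In the control library the reads of SLC22A8 came to 0.0571 of those of SLC22A6 (interval 0.00666 to 0.222), and in the sevoflurane library to 1.01 (0.760 to 1.34), and their proportion moved beyond counting error. SLC22A2, an organic cation transporter, had 14 and 34 reads (log2 ratio 1.86, interval 1.10 to 3.05). SLC47A1, an exporter of organic cations and drugs, had 173 and 227 reads, and at 1.14 (0.86 to 1.44) it showed the smallest difference of these 4.

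Both amino acid transporters of the class were higher as well. SLC6A20, which carries proline, went from 98 reads (5.83 CPM) to 213 reads (21.4 CPM), a log2 ratio of 1.85 (1.53 to 2.24). SLC6A13, which carries GABA and taurine and is a known leptomeningeal gene, had 199 reads (11.8 CPM) and 247 reads (24.9 CPM), a log2 ratio of 1.06 (0.80 to 1.35). The lower end of that interval, like that of SLC47A1, lies below 2-fold.

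The other genes of the SLC22 and SLC6 families had medians near equal expression, with single genes beyond counting error on either side. Of the 4 other SLC13 genes, 2 were tested: SLC13A3 at 0.76 (0.56 to 0.96) and SLC13A5 at -0.44 (-0.88 to -0.03). Of the 16 other SLC22 genes in the table, 10 were tested, with a median log2 ratio of -0.24, and 2 were called higher: SLC22A20 (11 and 44 reads, 2.51) and SLC22A7 (4 and 20 reads, 2.48). Of the 17 other SLC6 genes, most of which serve neurotransmitters or amino acids, 10 were tested, with a median of -0.03, and the only call was SLC6A7, the brain proline transporter, which was lower (1740 and 363 reads, -1.50). Genes that lie next to the members in the genome could differ from them. SLC6A12, the neighbour of SLC6A13, had 493 and 279 reads and a log2 ratio of -0.06 (-0.28 to 0.15). SLC22A3, the neighbour of SLC22A2, had 57 and 25 reads and a log2 ratio of -0.41 (-1.17 to 0.27).

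**Figure D2:**
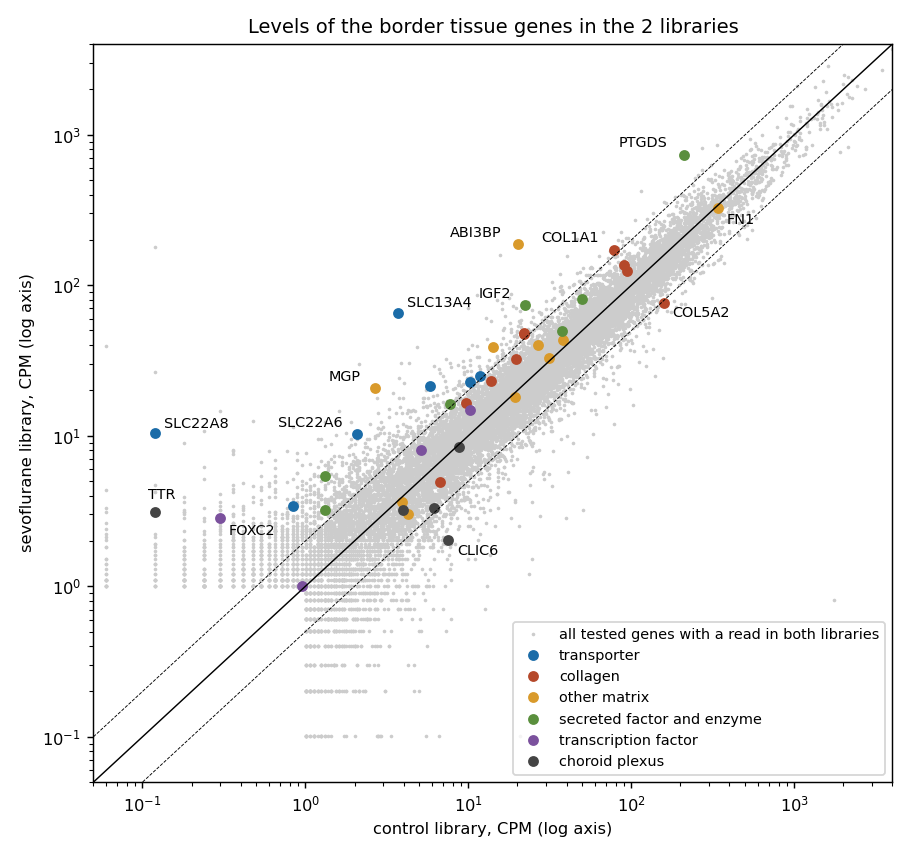
CPM in the control library (x) and the sevoflurane library (y), both on log axes, for the tested border tissue genes in colour and all tested genes with a read in both libraries in grey. The solid line marks equal levels and the dashed lines 2-fold; SLC22A8, TTR, SLC13A4, FOXC2, ABI3BP and MGP stand farthest above the lines in CPM, and CLIC6 and COL5A2 below.

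Secreted factors and enzymes of the meninges were next, with 5 of 7 higher, 0 lower and a median log2 ratio of 1.21. All 7 had intervals above equal expression, against 28.4% of all tested genes. PTGDS, which encodes prostaglandin D2 synthase, was read 3524 times (210 CPM) in the control and 7303 times (735 CPM) after sevoflurane, a log2 ratio of 1.81 (1.75 to 1.87). Oligodendrocytes also express PTGDS. The 12 oligodendrocyte genes examined, MBP among them, were all below equal expression, beside 28.1% of all tested genes, with a median of -1.24. Which cells the PTGDS reads came from was not tested. IGF2 is the insulin-like growth factor that meninges and choroid plexus release. It had 375 reads (22.3 CPM) and 732 reads (73.7 CPM), a log2 ratio of 1.72 (1.54 to 1.91). CEMIP, which takes part in hyaluronan breakdown, had 22 and 54 reads (1.94, 1.31 to 2.84).

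The remaining genes of this class differed less. ALDH1A2, the enzyme by which meninges make retinoic acid, had 22 and 32 reads, and its log2 ratio of 1.21 had a wide interval of 0.47 to 2.15. CYP1B1, a cytochrome P450 of perivascular and meningeal cells, had 129 and 162 reads (1.07, 0.74 to 1.43). ITIH5, of the inter-alpha-trypsin inhibitor heavy chains that bind hyaluronan, stood at 0.69 (0.55 to 0.84), and IGFBP2, a binding protein for insulin-like growth factors, at 0.40 (0.23 to 0.57). Neither reached 2-fold.

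The collagens pointed mostly upwards, by small amounts, with a pair of exceptions. Of the 10 listed collagen genes, 3 were called higher and 1 lower, with a median log2 ratio of 0.73, and 8 had intervals above equal expression. COL1A1, a chain of type I collagen, had 1307 control reads (77.8 CPM) and 1708 sevoflurane reads (172 CPM), a log2 ratio of 1.14 (1.04 to 1.25). Its partner chain COL1A2 had 1505 reads (89.6 CPM) and 1348 reads (136 CPM), a log2 ratio of 0.60 (0.49 to 0.71). The chains therefore did not move alike, and the reads of COL1A1 went from 0.868 of those of COL1A2 in the control (0.806 to 0.936) to 1.27 in the sevoflurane library (1.18 to 1.36).

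Type VI collagen, which forms beaded filaments around cells, was more even. COL6A1 had 366 and 470 reads (log2 ratio 1.11, 0.92 to 1.32) and COL6A2, its neighbour in the genome, 370 and 480 reads (1.13, 0.94 to 1.33). Their proportion was 0.989 in the control (0.854 to 1.15) and 0.979 in the sevoflurane library (0.860 to 1.11). COL6A3, the remaining type VI chain among the members, had 230 and 231 reads and a log2 ratio of 0.76 (0.50 to 1.03). The reads of COL6A1 were 1.59 of those of COL6A3 in the control (1.35 to 1.88) and 2.03 in the sevoflurane library (1.73 to 2.39). The collagens that decorate fibrils or link them to basement membranes had log2 ratios below those of COL6A1 and COL6A2. COL15A1 at 0.76 (0.45 to 1.09) was level with COL6A3, followed by COL14A1 at 0.71 (0.48 to 0.94) and COL12A1 at 0.40 (0.29 to 0.51).

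The exceptions were COL5A2 and COL3A1, which sit next to each other in the genome. COL5A2, a chain of the type V collagen that nucleates fibrils, had 2654 control reads (158 CPM) against 759 sevoflurane reads (76.4 CPM), a log2 ratio of -1.05 (-1.17 to -0.93). It was the only one of the 38 meningeal members called lower. COL3A1, the type III collagen of soft connective tissue, had 113 and 49 reads. Its log2 ratio of -0.44 (-0.96 to 0.05) was not distinguishable from equal expression. COL5A1, the partner of COL5A2 in type V collagen, was found through its gene ID, which the RefSeq gene table (macaque assembly MMU8v2.0) pairs with that symbol. It had 522 and 409 reads and a log2 ratio of 0.41 (0.22 to 0.60), on the other side of equal expression from COL5A2. COL5A3, a type V chain outside the members, had 1083 and 956 reads and a log2 ratio of 0.58 (0.45 to 0.71).

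Among the 31 collagen genes outside these members, 26 were tested, with a median log2 ratio of 0.36, and 3 were called higher and 0 lower. The 3 were COL6A6 (7 and 13 reads, 1.37), COL13A1 (12 and 19 reads, 1.26) and COL23A1 (66 and 80 reads, 1.01), all with few reads. The vessel basement membrane collagens COL4A1 (0.07) and COL4A2 (0.34) were near the centre. Of 19 genes that hydroxylate, process and cross-link collagen, 4 were called higher and 0 lower, with a median of -0.06. They were BMP1, the procollagen C-proteinase (303 and 561 reads, 1.64), LOXL2, a lysyl oxidase (72 and 148 reads, 1.76), ADAMTS2, the procollagen N-proteinase (74 and 133 reads, 1.57), and PCOLCE, which enhances the C-proteinase (54 and 93 reads, interval 1.04 to 2.05). SPARC, the collagen-binding glycoprotein with the most reads in that list, had 8569 and 3417 reads and a log2 ratio of -0.57.

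**Figure D3:**
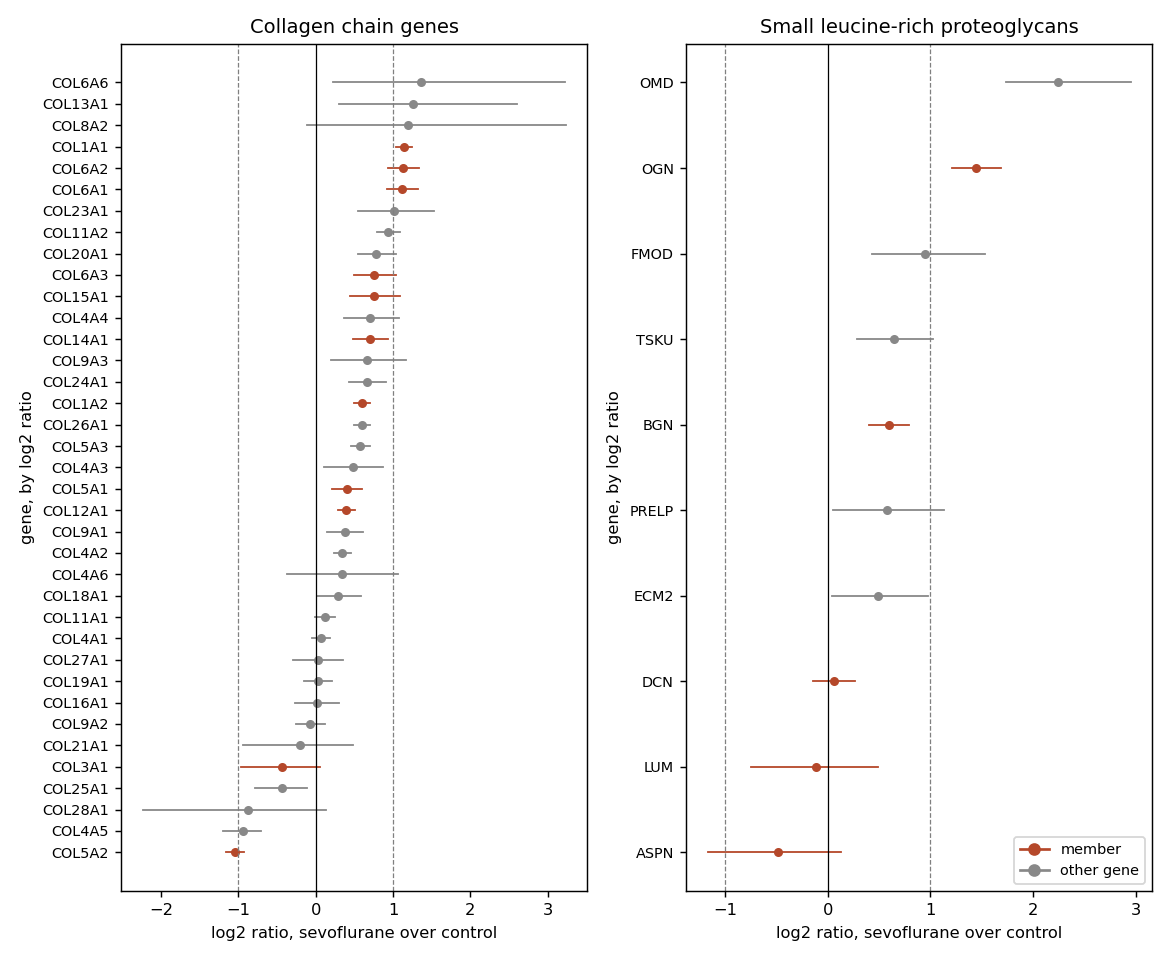
Log2 ratio of sevoflurane over control for the 37 tested collagen genes (left) and the 10 tested small leucine-rich proteoglycans (right), with 95% counting intervals as lines; members in red, other genes in grey, and the 2-fold threshold as dashed lines. COL5A2 is the lowest collagen at -1.05, and OMD (2.24) and OGN (1.44) are the proteoglycans above 1.

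The other matrix genes split into a few with large differences and a majority with none beyond counting error. Of the 10, 3 were called higher, 0 lower and 7 neither, and the median log2 ratio was 0.11. ABI3BP, an extracellular matrix glycoprotein, went from 341 reads (20.3 CPM) in the control to 1865 reads (188 CPM), a log2 ratio of 3.20 (3.04 to 3.38). The calcification inhibitor MGP (matrix Gla protein) had 45 reads (2.68 CPM) and 205 reads (20.6 CPM), a log2 ratio of 2.88 (2.48 to 3.45). OGN, the small leucine-rich proteoglycan osteoglycin, had 239 reads (14.2 CPM) and 386 reads (38.9 CPM), a log2 ratio of 1.44 (1.21 to 1.69).

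Within this class, several genes often used to mark fibroblasts did not follow. The type I collagen chains COL1A1 (1.14) and COL1A2 (0.60), counted with the collagens, were above equal expression. DCN, which encodes decorin, had 528 control reads (31.4 CPM) and 325 sevoflurane reads (32.7 CPM), a log2 ratio of 0.06 (-0.15 to 0.26). LUM, which encodes lumican and adjoins DCN in the genome, had 66 and 36 reads (-0.11, -0.74 to 0.49). FBLN1 (-0.10), FBLN2 (0.17) and FN1 (-0.05), which encode fibulins and fibronectin, also had intervals that spanned equal expression, and so did ASPN (-0.48), which encodes asporin. BGN, which encodes biglycan, was above equal expression at 0.59 (0.40 to 0.79) without reaching 2-fold.

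Proportions within this class moved accordingly. The reads of ABI3BP were 0.646 of those of DCN in the control (0.562 to 0.741) and 5.74 in the sevoflurane library (5.10 to 6.48). Those of MGP were 0.0852 of DCN (0.0614 to 0.116) and 0.631 (0.527 to 0.754). Neighbours in the genome again differed, since OGN, OMD, ASPN and ECM2 lie in a row. OMD, which encodes osteomodulin, had 32 and 95 reads (2.24, 1.74 to 2.95), ECM2 stood at 0.49 (0.04 to 0.97), and the reads of OGN went from 3.32 of those of ASPN in the control (2.54 to 4.38) to 12.9 in the sevoflurane library (8.87 to 19.3).

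Of the 4 transcription factors that specify meningeal and perivascular mesenchyme, 1 was called higher. FOXC2 had 5 control and 28 sevoflurane reads, a log2 ratio of 2.73 (1.85 to 4.97). FOXL1, which adjoins it, had 10 and 27 reads (1.95, 1.10 to 3.40), and the spans of these neighbours overlap in the RefSeq table. FOXC1, required for the meninges to form, had 173 and 147 reads (0.52, 0.20 to 0.85). TBX18, a factor of pericytes and mural precursors, had 86 and 80 reads (0.64, 0.20 to 1.11). FOXD1 had 16 and 10 reads (0.07, -1.22 to 1.31) and was too thinly covered to tell.

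The choroid plexus genes gave a different picture. Of the 7 listed, OTX2, the transcription factor that maintains the epithelium, had 0 reads in both libraries, which allows up to 0.179 and 0.302 CPM, and FOLR1, its folate receptor, had 0 and 3 reads. Neither was tested. TTR, which encodes transthyretin, had 2 control and 31 sevoflurane reads (0.119 and 3.12 CPM). The ratio of its CPM was 26.2, with an interval of 6.67 to 226. CLIC6, a chloride intracellular channel protein of the epithelium, had 126 and 20 reads (7.50 and 2.01 CPM) and was lower, at -1.82 (-2.66 to -1.21). PRLR, the prolactin receptor, had 104 and 33 reads (-0.87, -1.51 to -0.32). KL, which encodes klotho, had 67 and 32 reads (-0.29, -0.96 to 0.32), and AQP1, the water channel of the epithelium, 147 and 84 reads (-0.05, -0.45 to 0.35).

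Summed over the class, there were 446 control and 203 sevoflurane reads on choroid plexus genes. These came to 26.5 and 20.4 CPM, a ratio of 0.770 (0.649 to 0.911). AQP1 held 33.0% of the control sum and 41.4% of the sevoflurane sum, and CLIC6 held 28.3% and 9.85%. The sum therefore rests more on AQP1 than on TTR, and whether it tracks the amount of choroid plexus tissue was not tested. Meningeal reads were 23407 and 25274, or 1393 and 2545 CPM, a ratio of 1.83 (1.79 to 1.86). Without PTGDS and FN1, the most heavily read members, the meningeal ratio was 1.75 (1.71 to 1.80). TTR took 0.448% of the choroid plexus reads in the control (exact 95% interval 0.0544 to 1.61) and 15.3% after sevoflurane (10.6 to 21.0). The reads of the sulfate transporter SLC13A4 were 31.0 times those of TTR in the control (8.23 to 262) and 21.0 times in the sevoflurane library (14.6 to 31.1), with intervals that overlap.

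A list of 16 other choroid plexus genes was also mixed. Of these, 9 were tested, with 4 called higher, 2 lower and a median log2 ratio of 0.91. That median depended on the filter, and was 0.05 over genes with at least 1 read and 0.25 over genes that reached 5 CPM. KCNJ13, a potassium channel of the epithelium, had 3 and 28 reads, a CPM ratio of 15.8 with an interval of 4.88 to 81.2. SLC4A5, a sodium bicarbonate cotransporter, had 88 and 176 reads (1.73, 1.38 to 2.14), SLC5A5, the iodide transporter, 7 and 32 reads (2.57), and MSX1, a homeobox factor, 22 and 32 reads (1.21). F5 (32 and 8 reads, -1.10) and ABCA4 (55 and 13 reads, -1.23) were lower. LMX1A and CLDN2, which mark the lineage and its tight junctions, had 0 reads in both libraries, and HTR2C, a serotonin receptor abundant in the epithelium, had 5 and 1 reads. SLC4A10, which cortical neurons also express, had the most reads in the list (4502 and 3108, 0.22). Of the 12 genes of ependymal cilia, 10 were tested, with 3 higher, 1 lower and a median of -0.16, and DNAH5, with the most reads, stood at -0.94.

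The 28 other meningeal genes examined beside the members had a lower median than the members. Of 24 tested, 5 were called higher and 1 lower, with a median log2 ratio of 0.28. GJB2, the gap junction protein of the arachnoid barrier, had 3 and 32 reads, a CPM ratio of 18.0 (interval 5.65 to 92.1). CRABP2, which binds retinoic acid and marks arachnoid fibroblasts, had 16 and 44 reads (2.06, 1.36 to 3.14). ZIC1 (139 and 171 reads, 1.04) and ZIC2 (265 and 315 reads, 1.00), zinc finger factors of the meninges, and PI16 (47 and 63 reads, 1.14), a gene of adventitial fibroblasts, were at or just above the threshold. WNT16 was lower (132 and 33 reads, -1.20). PDGFRA, a fibroblast receptor that oligodendrocyte precursors carry as well, had the most reads (2876 and 1292, -0.40). CDH1, the cadherin of the arachnoid barrier, had 0 and 5 reads, with 1.55-fold as the lower limit of its interval. DPT, which encodes dermatopontin, had 1 and 7 reads, a CPM ratio of 11.8 (1.52 to 534). Both were below the filter.

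**Figure D4:**
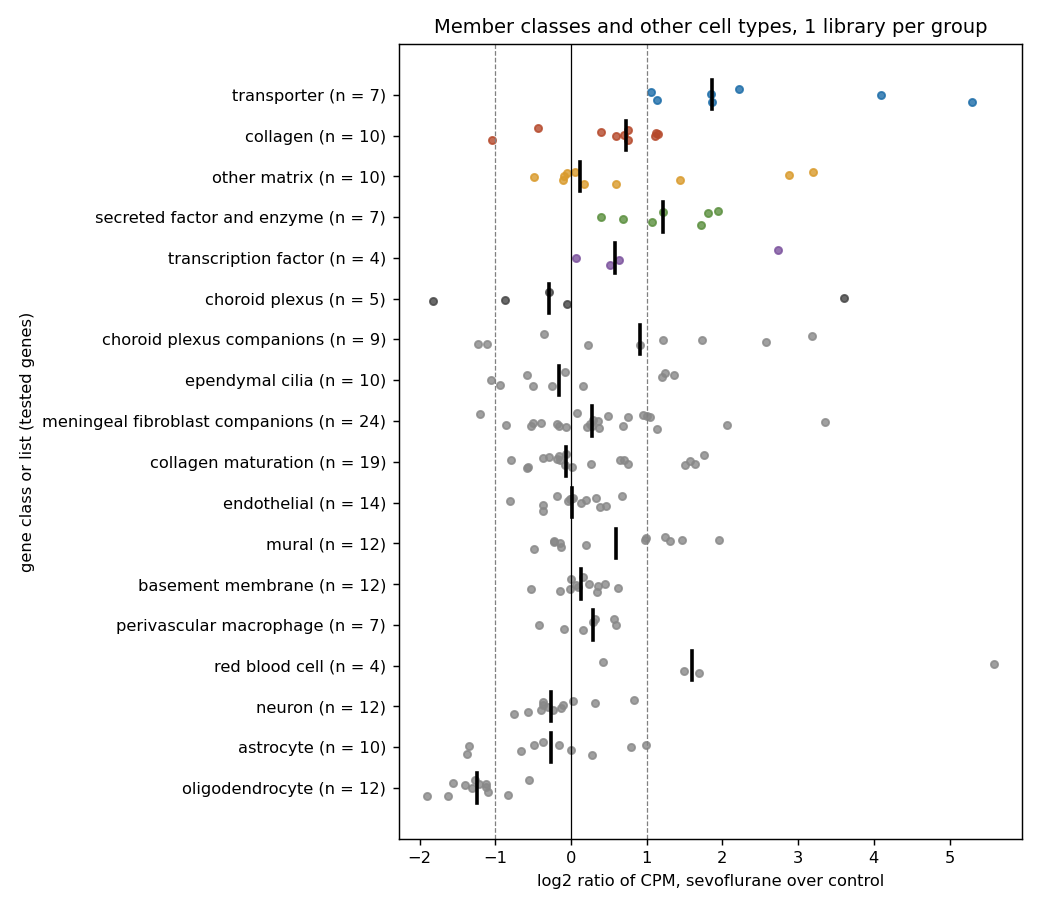
Log2 ratio of sevoflurane over control for each tested gene of the 6 member classes (coloured) and 12 other lists (grey), with the median of each as a black bar and the 2-fold threshold as dashed lines. The transporters (median 1.86) and secreted factors (1.21) lie to the right of the endothelial (0.02) and basement membrane (0.13) genes, and the oligodendrocyte genes (-1.24) to the left; the red blood cell point near 5.6 is HBA1, a fitted value against 0 control reads.

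Other cell types at the same vessels and surfaces were compared with the members. None of 14 endothelial genes was called in either direction, with a median log2 ratio of 0.02 and a range of -0.81 to 0.67, and SLC2A1, the glucose transporter with the most reads, stood at -0.04. None of 12 basement membrane genes was called, with a median of 0.13 and AGRN, with the most reads, at -0.0024. The 8 genes of perivascular macrophages had 0 calls among 7 tested and a median of 0.29, and STAB1 stood at -0.09. Of all tested genes, 7.56% were called higher and 5.47% lower. Taken singly, lists this short with 0 calls are therefore not set apart from that background by their counts. The 12 mural genes had a median of 0.59, or -0.11 over those that reached 5 CPM, and they divided: the 5 contractile genes of smooth muscle were all above equal expression, with a median of 1.24, while the 7 others had a median of -0.14. Called higher were MYH11 (112 and 261 reads, 1.96), ACTA2 (197 and 277 reads, 1.24) and CNN1 (10 and 19 reads, 1.47) of smooth muscle, and ANPEP (23 and 36 reads, 1.31). RGS5, the pericyte gene with the most reads, stood at 0.20.

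Blood and parenchymal genes also moved beside the members. Of the 8 red blood cell genes, 7 are listed and 4 were tested, with a median of 1.59 and a summed level of 25.1 CPM (control) and 81.6 CPM (sevoflurane). HBB had 350 and 672 reads (1.69, 1.51 to 1.89) and ALAS2 5 and 11 reads (1.49, 0.25 to 3.77). HBA1 had 0 and 70 reads, with 31.3-fold as the lower limit of its interval. However, HBA2, a near-identical copy between which counting can split reads, had 61 and 49. SLC4A1, the band 3 protein of red cells, had 2 and 0 reads. Of the 12 neuron genes, 0 were called, with a median of -0.27. That count, too, does not set a list this short apart from all tested genes. Of the 10 astrocyte genes, 2 were lower, with a median of -0.27, namely GFAP (-1.35) and AQP4 (-1.38). Of the 12 oligodendrocyte genes, 10 were lower, and MOG was the lowest at -1.90. The part of smooth muscle, blood or oligodendrocytes in the differences of the meningeal genes was not tested, and how much border tissue was dissected cannot be told apart from the animal or its exposure.

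Annotation limits a few of these values. In the RefSeq table, the span of SLC22A8 holds SLC22A9 (3 and 2 reads) and that of SLC13A4 overlaps LOC106997683, a long non-coding RNA (83 and 73 reads, 0.56), and whether reads were assigned by strand is not given in the sources used here. The spans of OGN and ASPN both lie across CENPP (15 and 18 reads, 0.91).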

How the data were processed

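RNA sequencing of prefrontal cortex from 1 control and 1 sevoflurane-treated rhesus macaque was analysed. The other animals of the study were not analysed here. The deposited table gives raw read counts, in whole numbers and not normalized by the authors, for 33618 genes. The submitters' processing notes name HISAT2 2.0.4. The counting tool, genome build and annotation are not given in the sources used here, so no coordinates are printed.

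Counts were scaled by TMM (edgeR 4.0.16, R 4.3.3), and log2 ratios of CPM used a prior count of 2 for the 18050 genes that reached 1 CPM in a library. Each 95% interval is exact (Clopper-Pearson) and treats a gene's reads as divided between the libraries (scipy 1.17.1, Python 3.11.15, numpy 2.4.6, pandas 2.3.3, with plots by matplotlib 3.10.9). The intervals, and the 3-read floor for a library at 0 reads, cover counting error only. Without replicates, the quasi-likelihood test of edgeR was not possible and no p-value was computed.

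The members, their classes and all lists were chosen with earlier results of these data known. The gene families and genomic neighbours were chosen after the members' values had been seen. Every member is accounted for. From each of the 12 other lists, the genes named are the most heavily read one and up to 4 that were called, with the most reads; further genes in the text (those at 0 reads, DPT, CDH1, HTR2C, HBA2, MOG, the remaining called genes) were chosen after their values were seen. Gene names came from the table, and from the RefSeq gene table (macaque assembly MMU8v2.0) by gene ID, which also gave the order of genes. Promoter and protein sequences were not analysed here. Results were recomputed with upper-quartile factors, unscaled library totals or size factors from DESeq2 1.42.0, with 0.5 as prior count, with 5 CPM or 1 read as filter, with a 4-fold or 1.5-fold threshold, and with 99.9% intervals. The scripts were tested on simulated data.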

Additional observations from a re-analysis of the deposited data

How the results depend on the processing

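The number of border tissue genes called was 20 higher and 2 lower with DESeq2 size factors, library totals, upper-quartile factors, a prior count of 0.5 or a filter of 1 read. At 4-fold it was 7 higher and 0 lower, and at 1.5-fold 27 and 3. A filter of 5 CPM left 16 higher, since SLC22A2, ALDH1A2, FOXC2 and TTR were no longer tested, and the stricter interval left 19, without ALDH1A2. Over all genes, 606 were higher and 474 lower with the filter of 5 CPM, 2604 and 2141 at 1.5-fold, and 352 and 221 at 4-fold. The medians of the 6 member classes kept their sign, and all 250 values of single members under these alternatives stayed within their counting interval. The choroid plexus median ranged from -0.85 to -0.19 and that of the other matrix genes from 0.09 to 0.40, both farthest from 0 with the filter of 5 CPM. Beyond the members, a filter of 1 read brought the median of the 16 other choroid plexus genes from 0.91 to 0.05, and a filter of 5 CPM brought it to 0.25, turned that of the mural genes from 0.59 to -0.11 and moved that of the red blood cell genes from 1.59 to 3.66. The scalings moved the median of all genes to 0.0218 at most.

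No paired analysis was possible because the design here has a single library on each side, which also leaves no replicate to omit. Depth limits the genes with few control reads, such as SLC22A8, TTR, KCNJ13, GJB2 and DPT, whose intervals are wide.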

Other observations

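Genes of retinoid handling, to which the meningeal enzyme ALDH1A2 belongs, did not move together. Of 15 such genes, 14 were tested, with 5 called higher, 1 lower and a median log2 ratio of 0.39. Besides ALDH1A2, the higher genes were the retinoic acid binding proteins CRABP1 (9 and 37 reads, 2.50) and CRABP2 (2.06), the synthesizing enzyme ALDH1A3 (12 and 23 reads, 1.51) and the degrading enzyme CYP26C1 (6 and 11 reads, 1.31), all with few reads. RBP4, the retinol carrier that travels with transthyretin in plasma, was lower, with 547 control and 46 sevoflurane reads (-2.77, -3.28 to -2.38), while TTR was higher. ALDH1A1, the isoform with the most reads, had 2139 and 944 reads (-0.42, -0.53 to -0.31).

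Among 12 genes of the insulin-like growth factor system, 11 were tested, with 2 called higher, 0 lower and a median of 0.40. IGFBP6, a binding protein that prefers IGF2, had 39 and 83 reads (1.78, 1.28 to 2.44), beside IGF2 at 1.72. The other ligand, IGF1, had 1147 and 698 reads (0.04, -0.10 to 0.18), and the receptors IGF1R (0.09) and IGF2R (0.29) stayed under 2-fold. Of the 7 fibulin genes, 0 were called, with a median of 0.17 and FBLN7 at 0.76 the highest.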
